A study of Mus musculus with 4 samples.

Results

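Mast cells and basophils were picked out of single-cell RNA sequencing of CD45-enriched (leukocyte-enriched) cells from orthotopic B6KPC3 pancreatic ductal adenocarcinoma in C57BL/6 mice. A barcode was kept with at least 200 genes, at least 500 UMIs (unique molecular identifiers, counted transcripts) and at most 10% mitochondrial UMIs. A kept cell was a member when Ms4a2, Fcer1a, Cpa3 and Mcpt8 together had 3 UMIs or more and Cd3e, Cd79a and C1qa had 0. This gave 105 members among 14855 kept cells of 18001 barcodes. The 9 genes of the rule and its subtypes (these 7 with Kit and Cma1) are the measured values the members were chosen by, so their levels and the contrasts between subtypes are given as description. The study compared AT38, a compound known here by its code name, with its vehicle, 1% carboxymethyl cellulose in water. AT38 was given at 30 mg/kg per day by a double intraperitoneal injection daily for 7 days, starting in mice whose tumours were 7 days old, and vehicle mice had the same schedule. Each group had 2 libraries and each library pooled the tumours of 4 mice, 16 mice in all, which makes the pool the unit of replication, and mice of 1 pool cannot be told apart.

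Mast cells mature inside tissues under KIT signalling and store histamine, heparin, carboxypeptidase and serine proteases (chymases and tryptases) in granules. They release them when IgE on the receptor FcεRI is cross-linked. Basophils circulate, carry the same receptor, make IL-4 and IL-13 quickly, and in mice are marked by the protease Mcpt8. Mouse mast cells are often described as connective-tissue type, with Cma1, Mcpt4, tryptase and the receptor Mrgprb2, or mucosal type, with Mcpt1 and Mcpt2.

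Many of these protease genes lie side by side. In GRCm38 (the assembly of mm10) Cma1, Mcpt1, Mcpt9, Mcpt2, Mcpt4, Mcpt8, Ctsg and Gzmb occupy 320.8 kb at chr14:55941451-56262260, with Mcpt8 beginning 140.7 kb from Cma1. Cpa3 lies apart, at chr3:20215620-20242181 on the minus strand, and the tryptase genes Tpsab1 (chr17:25343245-25345562, minus strand) and Tpsb2 (chr17:25366305-25369098, plus strand) lie on a further chromosome. Promoters of Cpa3, which mast-like and basophil-like members share, of 3 chymases seen in mast-like members, and of the basophil protease Mcpt8 are shown because the cells described here are told by these genes, although 25 mast-like members also carried Mcpt8. Each runs 5′ to 3′ on the gene's strand from 250 bases before to 50 bases after the start in RefSeq (GRCm38.p6): Cpa3 at chr3:20242132-20242431 (minus), Cma1 at chr14:55944626-55944925 (minus), Mcpt1 at chr14:56017714-56018013 (plus), Mcpt4 at chr14:56062261-56062560 (minus) and Mcpt8 at chr14:56085148-56085447 (minus). Capitals mark a GATA hexamer on either strand. The hexamers searched were AGATAA, its variant with a final guanine AGATAG, the variant with a leading thymine TGATAA, and the variant with both changes TGATAG. The factor GATA2 is needed by both lineages.
Cpa3: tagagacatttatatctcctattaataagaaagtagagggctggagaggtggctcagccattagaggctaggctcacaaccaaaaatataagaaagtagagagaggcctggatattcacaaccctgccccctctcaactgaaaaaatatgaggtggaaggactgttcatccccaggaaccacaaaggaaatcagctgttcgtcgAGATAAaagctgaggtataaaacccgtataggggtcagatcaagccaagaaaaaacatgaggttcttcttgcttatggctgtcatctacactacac
Cma1: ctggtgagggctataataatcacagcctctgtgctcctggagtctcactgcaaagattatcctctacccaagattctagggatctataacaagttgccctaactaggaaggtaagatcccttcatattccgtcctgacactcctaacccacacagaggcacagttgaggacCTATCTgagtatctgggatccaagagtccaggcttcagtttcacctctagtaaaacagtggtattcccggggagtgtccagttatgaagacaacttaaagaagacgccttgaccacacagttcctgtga
Mcpt1: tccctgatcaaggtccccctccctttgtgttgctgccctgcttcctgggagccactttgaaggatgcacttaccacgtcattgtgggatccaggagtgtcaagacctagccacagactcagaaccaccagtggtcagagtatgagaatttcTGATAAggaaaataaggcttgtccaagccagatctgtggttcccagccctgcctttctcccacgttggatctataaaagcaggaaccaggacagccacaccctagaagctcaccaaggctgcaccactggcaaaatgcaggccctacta
Mcpt4: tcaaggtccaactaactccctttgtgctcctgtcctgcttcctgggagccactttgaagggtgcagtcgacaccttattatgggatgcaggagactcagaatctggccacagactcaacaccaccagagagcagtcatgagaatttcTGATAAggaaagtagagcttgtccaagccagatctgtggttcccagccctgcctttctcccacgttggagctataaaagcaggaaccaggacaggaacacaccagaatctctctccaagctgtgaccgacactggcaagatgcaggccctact
Mcpt8: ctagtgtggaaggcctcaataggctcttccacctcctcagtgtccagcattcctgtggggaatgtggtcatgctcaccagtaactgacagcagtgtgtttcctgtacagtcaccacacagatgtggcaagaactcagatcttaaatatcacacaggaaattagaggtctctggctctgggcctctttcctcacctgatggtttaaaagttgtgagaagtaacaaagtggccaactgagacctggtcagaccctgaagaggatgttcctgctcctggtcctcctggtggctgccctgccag

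A GATA hexamer began 46, 79, 99 and 103 bases before the start of Cpa3, Cma1, Mcpt1 and Mcpt4, and these letters were not in the Mcpt8 window. One of these hexamers stood in the windows of 33.0% of 27025 genes with a RefSeq promoter, so a match is common. Of the fixed lists, 6 of 10 protease genes with a promoter, 4 of 7 granule genes and 11 of 16 IgE receptor genes had one. The E-box letters CACGTG or CATGTG, the kind of site that MITF binds, stood in 22.7% of genes, in 2 of those 10, 0 of those 7 and 4 of those 16. Both strands were searched, the 2 kinds of motif were counted separately and can share end letters, and a match is a description and not a bound site.

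The libraries held 24294215 to 34386076 UMIs, with 3003 to 4992 kept cells and median UMIs per kept cell of 3167 to 4243. Members were deeper than the kept cells, with medians of 5868.5 and 6779 UMIs in vehicle 1 and vehicle 2 and 4660 and 6195.5 in AT38 1 and AT38 2. Between 2 and 13 kept barcodes of a library were also found in another library, but 0 member barcodes were. Near the rule's threshold, 11 cells with a marker sum of 2 stood just outside, 3 with a sum of 3 just inside, and 27 with a sum of 3 or more were left out for a UMI of Cd3e, Cd79a or C1qa. No doublets were removed by the rule, and 15 of the 105 members were among the highest doublet scores of their library.

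Most members were mast-like. Kit, the receptor of stem cell factor, or Cma1, a chymase, was present without Mcpt8 in 67 members (19 and 14 in vehicle 1 and vehicle 2, 18 and 16 in AT38 1 and AT38 2). Either gene was present with Mcpt8 in 25 (6, 11, 4 and 4 in the same order), and Mcpt8 was present without them in 9 (2, 2, 2 and 3). The other 4 members (1, 2, 0 and 1) had none of the 3 genes. Outside the members, 0.0672% to 0.276% of the kept cells of a library had an Mcpt8 UMI, at median depths of 3148 to 4229 UMIs. The 92 mast-like members with or without Mcpt8 had median depths of 6291, 6835, 4750 and 6503 UMIs.

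**Figure D1:**
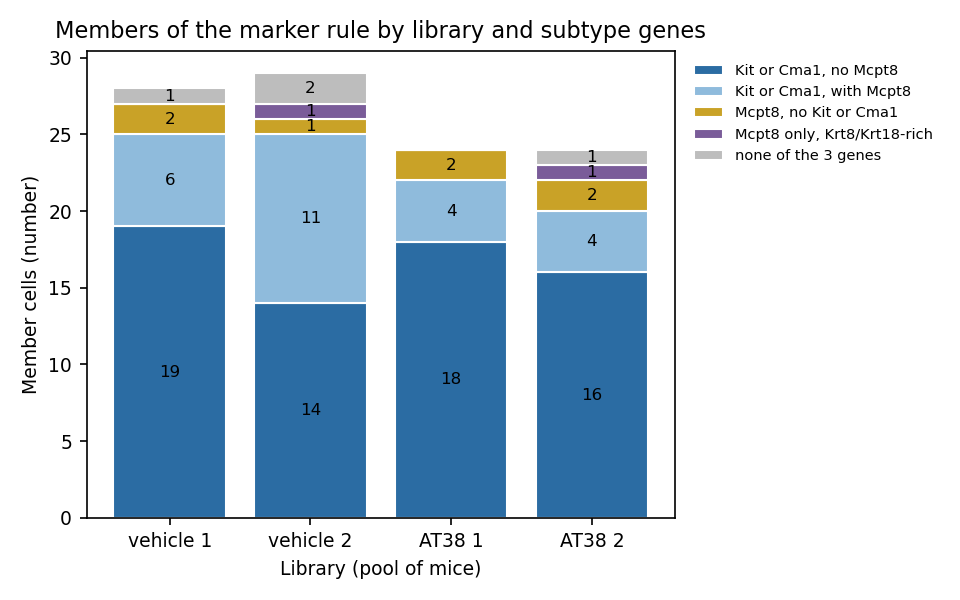
Number of member cells (y axis) in each of the 4 libraries (x axis), stacked by the genes that define the subtypes. Mast-like cells with or without Mcpt8 number 25, 25, 22 and 20 and make up most of every bar.

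The label held well for the mast-like cells on genes that the rule did not use. At least 1 UMI of Tpsb2, a tryptase of mast cell granules, was found in 84%, 100%, 95.5% and 95% of the mast-like members of vehicle 1, vehicle 2, AT38 1 and AT38 2. In B cells, which should lack it, the shares were 3.01%, 2.67%, 1.39% and 2.44% at median depths of 3405.5, 2725.5, 3677 and 3639.5 UMIs, which is the background level. Mcpt4, also not used by the rule, was found in 84%, 100%, 90.9% and 100% of the mast-like members in the same order. Of the 9 mast cell markers all 9 were detected, but Kit and Cma1 among them define these cells. Cma1, Mcpt4 and Tpsb2 were found together in 78 of the 92 cells. Eosinophil markers were nearly absent, with Epx, Prg2, Prg3 and Ear6 at 0, and so were T and NK cell markers, at summed levels of 6.36 to 15.8 CPM (the UMIs of a gene scaled to the same total in every sum) per library. Macrophage and monocyte markers summed to 19.1 to 89.3 CPM, and dendritic cell markers to 1746 CPM in vehicle 2 against 102 to 355 CPM elsewhere. Basophil markers summed to 1723 to 2707 CPM, with 6 of 7 detected and Ccr3 at 0. Among them are the rule gene Mcpt8, and Gata2, which both lineages need.

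Of the 9 basophil-like cells 7 carried further basophil genes beside those of the rule, but 6 of these 7 were among the highest doublet scores of their library, and the part of doublets in what they show was not tested. The other 2 barcodes, 1 in vehicle 2 and 1 in AT38 2, held 156236 and 260613 UMIs, 279 and 873 of them from the epithelial keratins Krt8 and Krt18. They met the rule with 3 and 10 Mcpt8 UMIs alone, since Fcer1a, Ms4a2 and Cpa3 were at 0 in both, and Epcam was also at 0. They carried 41.1% and 60.7% of all member UMIs of their libraries, so 1 barcode each weighed heavily in the sums over all members of these libraries. Results below are therefore given for mast-like cells, and the basophil-like cells are described without these 2.

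The 7 basophil-like cells were shallow, with 2769 to 4414 UMIs each and 23150 in all. The basophil surface receptor Cd200r3 was found in 7 of 7 at 1 to 6 UMIs, and the factor Gata2 in 6 of 7 at up to 12. Hdc, which makes histamine, was found in 7 of 7 at 5 to 40 UMIs. Cytokine transcripts were frequent in so few cells: Il4 in 5 of 7 at up to 28 UMIs, Il13 in 5 of 7 at up to 11, and Il6 in 7 of 7 at 1 to 18. The chemokine transcripts Ccl3 (26 to 215 UMIs) and Ccl4 (15 to 255) were found in 7 of 7, Ccl9 in 7 of 7 at 1 to 27, and the macrophage growth factor Csf1 in 4 of 7 at up to 33. Prss34, a further basophil protease, and Ccr3, a chemokine receptor, were at 0 UMIs, as were Mcpt4, Tpsb2, Mcpt1 and Mcpt2. At 0 UMIs these 7 cells allow a level of up to 130 CPM. Itga2, a further basophil marker, was found in 2 of 7. Prss34 was found in 17 of the 92 mast-like members, at up to 21 UMIs. The 1 cell not among the high doublet scores, in vehicle 1, had 6 UMIs of Cd200r3, 7 of Gata2, 8 of Hdc, 1 of Il4, 0 of Il13, 3 of Il6, 34 of Ccl3, 15 of Ccl4 and 17 of Ccl9, from 3000 UMIs.

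As a description without a test, the genes highest in basophil-like cells relative to all other kept cells beside the rule's own were Cyp11a1, Gata2, Cd200r3, Il4 and Hgf. Cyp11a1, the enzyme that begins steroid hormone synthesis, was at a mean of 3577 CPM over the libraries against 2.70 in all other kept cells. Hgf, hepatocyte growth factor, was at 1065 CPM against 7.39 there and 2.63 in mast-like cells. Ccl3 was at 29756 CPM in basophil-like and 602 CPM in mast-like cells, Ccl9 at 2643 and 31.0, and the chemokine receptor Cxcr4 at 910 and 18.9. Cd7, a lymphoid surface protein, was at 987 CPM in basophil-like cells and at 0 in mast-like cells, whose 695273 UMIs allow up to 4.31 CPM. All of these lay higher in the basophil-like sum of each of the 4 libraries, but that was a condition for being listed. Each such sum rests on 1 or 2 cells.

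**Figure D2:**
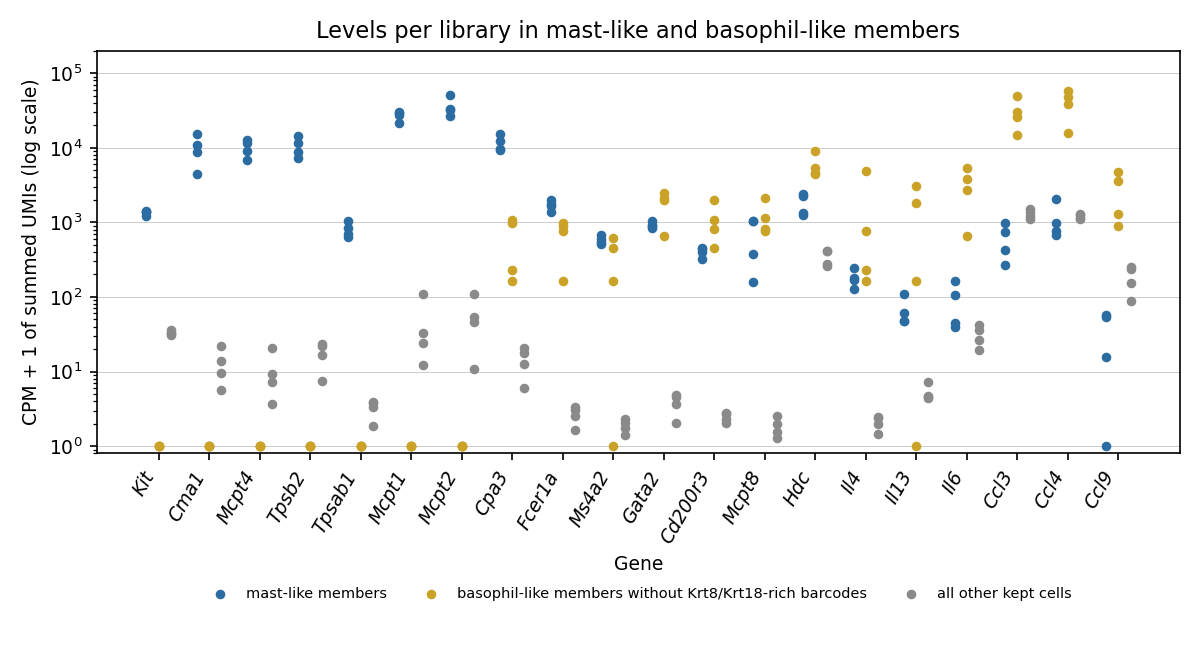
CPM + 1 of summed UMIs on a log axis (y) for 20 genes (x), 1 point per library, in mast-like members, basophil-like members without the Krt8/Krt18-rich barcodes, and all other kept cells. Kit, Cma1, Mcpt4, the tryptases, Mcpt1 and Mcpt2 are at 0 in basophil-like cells, and Ccl3, Ccl4 and Ccl9 lie above mast-like cells there.

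In the 92 mast-like members, protease transcripts were a large part of the RNA counted. The 13 proteases of the list held 10.8% and 12.8% of all their UMIs in vehicle 1 and vehicle 2 and 10.1% and 9.33% in AT38 1 and AT38 2. Mcpt2, a mucosal-type chymase family protease, stood at 27066, 50331, 33287 and 31823 CPM in that order, and Mcpt1, a mucosal-type chymase, at 21669, 27124, 29138 and 30647 CPM. In all other kept cells their means were 54.2 and 44.0 CPM. Mcpt4, a connective-tissue chymase, was at 11502, 12536, 8963 and 6808 CPM, against 9.20 in the other kept cells. The mouse proteases Mcpt1, Mcpt2 and Mcpt4, and Tpsb2 and Tpsab1, are similar in sequence, and how reads matching several of them were counted is not given in the sources used here, so the split within each set is uncertain.

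The receptor genes of mast cells were compared across the libraries. Kit was at 1366, 1200, 1398 and 1367 CPM, and Il1rl1, the receptor of IL-33, at 1949, 1191, 1198 and 1246 CPM. The FcεRI gamma chain Fcer1g, which the rule did not use, was at 2049, 2132, 1723 and 2085 CPM. For Il1rl1 and Fcer1g the groups overlapped, and the Kit levels of vehicle 1 and AT38 2 were nearly equal.

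The lineage factor Gata2 was at 883, 1045, 910 and 826 CPM in mast-like cells and at 2.80 on average in all other kept cells. Mitf, a factor that mast cells need, was at 89.3, 165, 104 and 184 CPM, and Gata1 at only 15.8, 37.7, 22.2 and 31.8 CPM. Of mediator genes, Tph1, which makes serotonin, was at 489, 405, 325 and 547 CPM, Hpgds, which makes prostaglandin D2, at 300, 377, 259 and 254 CPM, and Alox5 of leukotriene synthesis at 741, 499, 518 and 578 CPM. Il4 was at 168, 245, 126 and 178 CPM, and Vegfa, an angiogenic factor, at 357, 410, 429 and 547 CPM. Nos2, Nos3, Ass1 and Slc7a2 of the nitric oxide and arginine list were at 0 UMIs, and Arg1 was found with 4 UMIs in all. Il3, Il5, Csf2 and Areg of the cytokines, and the receptors Ccr3, Ptgdr2 and Hrh4, were also at 0 UMIs.

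The mast-like cells differed among themselves along the chymases. Mcpt1 was at 0 in 19 of 92 cells (9, 3, 6 and 1 by library), and Mcpt2 in 11. Over the 92 cells, Mcpt1 and Mcpt2 went together per 10000 UMIs (Spearman's rho 0.66, and 0.41 to 0.87 within libraries), whereas Mcpt1 and Cma1 ran opposite (−0.48, and −0.67, −0.39, −0.44 and −0.38 within libraries). Cma1 went with Cpa3 (0.75, and 0.78, 0.82, 0.79 and 0.25 within libraries), though both are genes of the rule. It also went with the receptor Mrgprb2 (0.55, and 0.63, 0.61, 0.48 and 0.33 within libraries). Both were weakest in AT38 2. In the 19 cells without Mcpt1 the median of Cma1 was 165 per 10000 UMIs and that of Mcpt2 was 0, against 52.0 and 316 in the 73 cells with Mcpt1. These are descriptions across cells that share libraries and depth, and the cells without Mcpt1 were shallower, with a median of 4167 UMIs against 6592.

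Connective-tissue and mucosal-type genes were mostly found in the same cells. Of the 92, Mcpt4 was found in 86, Tpsb2 in 86, Mcpt2 in 81 and Mcpt1 in 73, whereas the connective-tissue receptor Mrgprb2 had no UMI in 54. All 92 had Cpa3 and 87 had Cma1, but the rule used these 2 genes. The Mcpt8 transcripts of mast-like cells came mostly from few of them: 21 cells had 1 to 10 UMIs, and 4 cells had 66, 77, 122 and 163 (1 in vehicle 1, 2 in vehicle 2 and 1 in AT38 2). Those 4 cells also held 216, 86, 290 and 135 Cma1 UMIs, were 8720, 16537, 24138 and 23416 UMIs deep, and were not among the highest doublet scores. Their Mcpt8 counts exceeded the 11 UMIs of the highest of the 7 basophil-like cells.

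**Figure D3:**
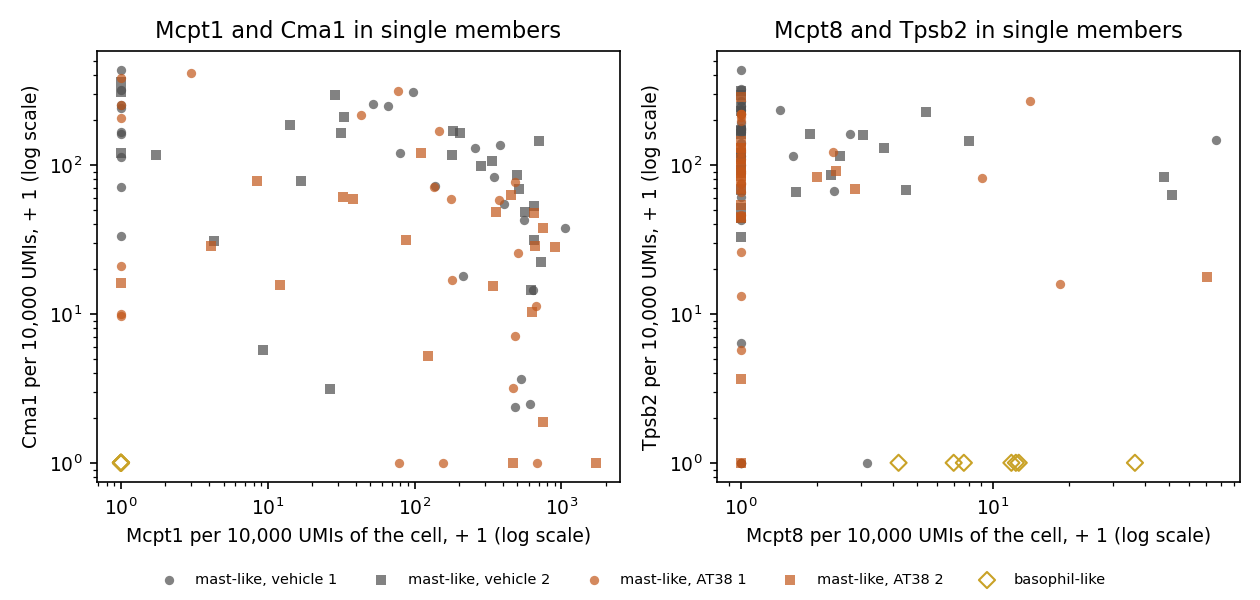
Each point is 1 cell, by UMIs of a gene per 10000 UMIs of that cell, + 1, on log axes: Mcpt1 (x) and Cma1 (y) on the left, Mcpt8 (x) and Tpsb2 (y) on the right, for mast-like members of each library and the 7 basophil-like members. Cells rich in Mcpt1 tend to be low in Cma1, and 4 mast-like cells with 66 to 163 Mcpt8 UMIs stand to the right.

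With AT38, the share of these cells among kept cells did not pass a test. Members were 0.932% and 0.581% of kept cells in vehicle 1 and vehicle 2 and 0.657% and 0.748% in AT38 1 and AT38 2, so the AT38 libraries lay between the vehicle libraries. The means were 0.757% ± 0.249 and 0.703% ± 0.0640 (SD, n = 2). In edgeR's quasi-likelihood test of cell numbers the log2 fold change was −0.05 ± 0.31 (SE, adjusted p = 0.879). Exact 95% binomial intervals of these shares, which cover counting error only, run from 0.620% to 1.34% in vehicle 1 and from 0.389% to 0.833% in vehicle 2. What size of shift 2 against 2 libraries could detect was not tested.

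Among the subtypes, mast-like cells without Mcpt8 were 0.633%, 0.280%, 0.493% and 0.499% of kept cells, with overlap between groups (log2 fold change 0.23 ± 0.42, adjusted p = 0.668 in edgeR). Mast-like cells with Mcpt8 were 0.1998% and 0.220% with vehicle and 0.110% and 0.125% with AT38, lower in both AT38 libraries without overlap. The log2 fold change was −0.85 ± 0.35 (edgeR, adjusted p = 0.298), and the exact two-sided permutation test gave 0.333, the smallest p that 2 against 2 libraries allow. Basophil-like cells, 2 or 3 per library, stood at a log2 fold change of 0.51 ± 0.61 (edgeR, adjusted p = 0.668). This test kept the Krt8/Krt18-rich barcodes, 1 in vehicle 2 and 1 in AT38 2. Shares are relative to the other cells kept, of which 4 classes passed the same edgeR test; none of the 4 passed without vehicle 1 or without vehicle 2.

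Gene levels in mast-like cells without Mcpt8 (67 cells, 4 sums of UMIs) showed a lower level of the tryptase Tpsb2 with AT38, and higher levels of Il1a, Il1r2 and Slc7a11 that rested on a few cells with neutrophil transcripts. These were the 4 genes called of 1588 tested, 0.252% (3 higher, 0.189%, and 1 lower, 0.063%; edgeR quasi-likelihood, Benjamini-Hochberg adjusted p under 0.05). Tpsb2 stood at 13862 and 12912 CPM in vehicle 1 and vehicle 2 and at 7974 and 8346 CPM in AT38 1 and AT38 2. Both AT38 libraries were lower than both vehicle libraries, and the pairs lay close together (13387 ± 672 and 8160 ± 263 CPM, SD, n = 2). The log2 fold change was −0.71 ± 0.11 (SE; edgeR, adjusted p = 0.0323).

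The lower Tpsb2 level was also seen across the cells: over the 92 mast-like members its median was 147 and 120 per 10000 UMIs in the vehicle libraries and 88.1 and 82.6 in the AT38 libraries. With all 92, where 1 of 2541 genes was called (Il1a, higher, 0.0394%; 0 lower, 0.0%), the log2 fold change of Tpsb2 was −0.67 (edgeR, adjusted p = 0.154), and −0.71 in the 67 when cells rich in S100a8 and S100a9 were left out (adjusted p = 0.116), so the size held while the call did not. The call was also lost without vehicle 2 (−0.76) and with DESeq2 (−0.72, adjusted p = 0.648). Tpsb2 in all other kept cells was at 15.9 and 20.9 CPM with vehicle and at 22.5 and 6.43 CPM with AT38. Its difference between all 92 mast-like members and the rest, an alternative chosen after seeing the data, did not pass (log2 difference −0.07 ± 0.81, edgeR adjusted p = 0.999).

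Of the 13 proteases, 10 could be tested in mast-like cells without Mcpt8, and 1 was called lower (Tpsb2) and 0 higher. Without Cpa3 and Cma1, which the rule used, the median log2 fold change of the other 8 was −0.26, against 0.002 over all 1588 genes tested. In 3 of these 8 both AT38 libraries lay below both vehicle libraries and in 2 above, where 17.1% and 18.0% of all genes tested did, so these few genes are given by their values. Mcpt4 was at 11502 and 11623 CPM with vehicle and 8279 and 5801 CPM with AT38 (log2 fold change −0.71 ± 0.16, edgeR adjusted p = 0.242). A further tryptase, Tpsab1, was at 942 and 1014 CPM with vehicle and 745 and 764 CPM with AT38 (−0.37 ± 0.24, edgeR adjusted p = 0.922). Over all mast-like members, the medians of Tpsab1 per 10000 UMIs were 6.88 and 6.84 with vehicle and 7.47 and 6.95 with AT38. The tryptase Tpsg1 was not called, and its log2 fold change was above 0 in 17 of 17 alternatives (0.25 to 0.64). Neither Mcpt4 nor Tpsab1 passed, although in the sums without Mcpt8 both lay lower in both AT38 libraries.

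The rule's own proteases, given as description, lay the same way: Cpa3 at 12775 and 12120 CPM with vehicle and 8890 and 8688 CPM with AT38, and Cma1 at 10527 and 11179 against 6977 and 4479 CPM. The mucosal-type proteases did not: Mcpt1 was at 30164 and 27071 CPM with vehicle and 34159 and 31451 CPM with AT38 (0.20 ± 0.09, edgeR adjusted p = 0.903), and Mcpt2 overlapped (36447, 42762, 36960 and 33780 CPM). As a share of all UMIs of these cells, Mcpt4, Tpsb2 and Tpsab1 together held 2.63% and 2.55% with vehicle and 1.70% and 1.49% with AT38, while Mcpt1 and Mcpt2 held 6.66% and 6.98% and 7.11% and 6.52%. Whether Tpsb2, Tpsab1 and Mcpt4 changed more than Mcpt1 and Mcpt2 was not tested.

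**Figure D4:**
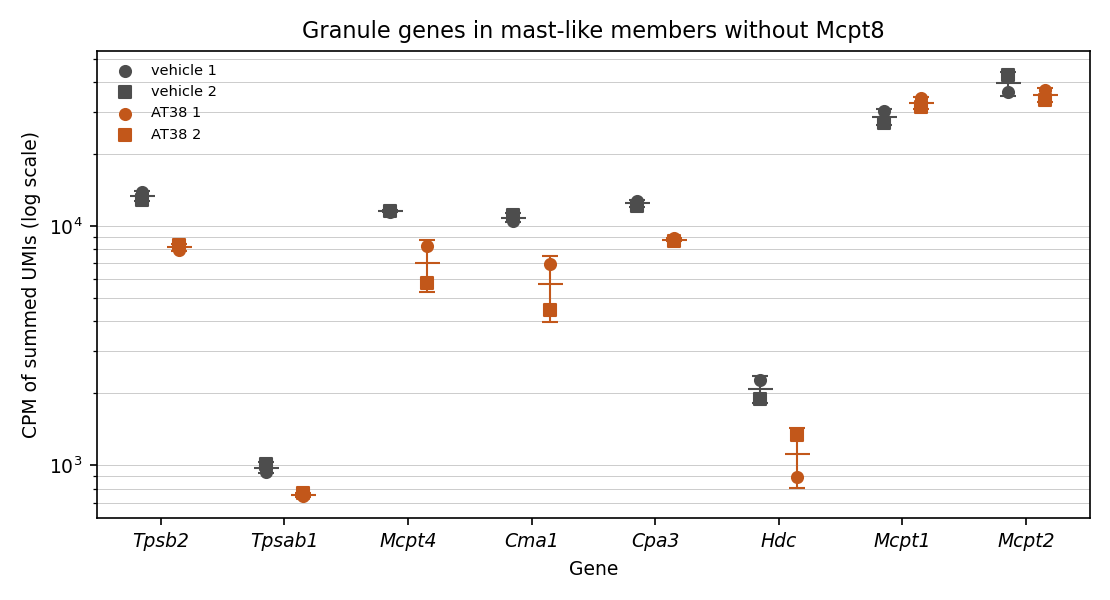
CPM of summed UMIs on a log axis (y) for 8 granule genes (x) in mast-like members without Mcpt8, 1 point per library, with the mean and SD of 2 libraries. Tpsb2 falls from about 13387 CPM with vehicle to 8160 with AT38. The AT38 points of Tpsab1, Mcpt4, Hdc and the rule genes Cma1 and Cpa3 also lie below the vehicle points. Those of Mcpt1 lie above, and those of Mcpt2 overlap.

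Of the granule and histamine genes, 8 of 10 were tested and 0 called, with a median log2 fold change of −0.17. Hdc, the enzyme of histamine synthesis, was at 2279 and 1902 CPM with vehicle and 898 and 1340 CPM with AT38 (−0.90 ± 0.23, edgeR adjusted p = 0.289). Both AT38 libraries were lower. When all 92 mast-like members were summed without those rich in S100a8 and S100a9, a choice made after seeing the data, Hdc passed (−0.97 ± 0.21, edgeR adjusted p = 0.00831). In that setting 5 of 2286 genes were called: Hdc, the amino acid transporter Slc7a8 (−2.38) and S100a6 (−2.79) lower, and the mitochondrial leucyl-tRNA synthetase Lars2 (2.10) and the prion protein gene Prnp (1.37) higher. Hdc in all other kept cells was at 406 and 416 CPM with vehicle and 278 and 256 CPM with AT38, and the difference between mast-like members and the rest, an alternative chosen after seeing the data, did not pass (log2 difference −0.20 ± 0.21, edgeR adjusted p = 0.999).

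Of the IgE receptor and signalling genes, 13 of 19 were tested and 0 called. Without Fcer1a and Ms4a2, which the rule used, the median log2 fold change of the other 11 was −0.04. The adaptor Lcp2, which passes the FcεRI signal on, was at 515 and 507 CPM with vehicle and 251 and 306 CPM with AT38 (−0.87 ± 0.29, edgeR adjusted p = 0.588). Fcer1g was at 1909 and 2187 CPM with vehicle and 1850 and 1907 CPM with AT38 (−0.12 ± 0.17, edgeR adjusted p = 0.998). Both genes lay lower in both AT38 libraries, as 4 of the 11 did (17.1% of all genes tested), without passing. Of 29 receptors 9 were tested and 0 called; Il1rl1 was at 1772 and 1331 CPM with vehicle and 979 and 1313 CPM with AT38 (−0.43 ± 0.23, edgeR adjusted p = 0.922), and Mrgprb2, the receptor for IgE-independent release, at 298 and 232 against 144 and 144 CPM.

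Of 21 cytokines and chemokines 10 were tested and 0 called, with a median of −0.46. Il6 was at 121 and 243 CPM with vehicle and 44.9 and 36.0 CPM with AT38 (−2.09 ± 0.53, edgeR adjusted p = 0.289), from 15, 23, 5 and 4 UMIs. Ccl4 was at 2642 and 919 CPM with vehicle and 422 and 702 CPM with AT38 (−1.66 ± 0.58, edgeR adjusted p = 0.881). Both were lower in both AT38 libraries, and neither passed at these counts. Without vehicle 1 the log2 fold change of Ccl4 was −0.71 (edgeR, adjusted p = 0.816).

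In the remaining lists, 1 gene was called, Slc7a11 among 8 tested NRF2 targets (median 0.41). Of the transcription factors 12 of 20 were tested, of the lipid mediator genes 7 of 10, of hypoxia and glycolysis genes 10 of 14 and of immediate early genes 12 of 12, with 0 called and medians of 0.09, −0.14, −0.12 and −0.16. Of survival genes and STAT5 targets 5 of 12 were tested, of type I interferon genes 3 of 18, of MHC class II genes 2 of 7 and of nitric oxide and arginine genes 1 of 9, again with 0 called and medians of 0.30, −0.35, 0.10 and −0.45. Pim1, a survival kinase and STAT5 target, was at 725 and 433 CPM with vehicle and 1051 and 1070 CPM with AT38 (0.87 ± 0.29, edgeR adjusted p = 0.598). Because so few of their members were abundant enough to test, these lists say little about the interferon, MHC class II and nitric oxide genes of mast cells.

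The 3 genes called higher sat in a few cells. Il1a, an alarmin cytokine, had 2 and 0 UMIs in vehicle 1 and vehicle 2 and 22 and 31 in AT38 1 and AT38 2 (log2 fold change 4.56 ± 0.67, edgeR adjusted p = 0.0318). Il1r2, the decoy receptor of IL-1, had 4, 1, 32 and 47 UMIs (3.91 ± 0.55, edgeR adjusted p = 0.0318). Slc7a11, the cystine transporter, had 6, 2, 35 and 53 UMIs (3.42 ± 0.50, edgeR adjusted p = 0.0318). In each the AT38 libraries lay far above the vehicle libraries, but 7 of the 92 mast-like cells (2, 0, 2 and 3 by library) held 20 or more UMIs of S100a8 and S100a9, genes of neutrophils, and 5 of those 7 were among the highest doublet scores.

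These S100a8- and S100a9-rich cells (6 of them without Mcpt8) held 96.4% of the Il1a, 88.1% of the Il1r2 and 91.7% of the Slc7a11 UMIs of mast-like cells without Mcpt8. Without them Il1a had 0, 0, 2 and 0 UMIs by library, Il1r2 3, 1, 5 and 1, and Slc7a11 2, 2, 3 and 1, and 0 of 1376 genes were called (61 at an unadjusted p under 0.05). Neutrophil markers summed to 4253 and 52.8 CPM in vehicle 1 and vehicle 2 and 5936 and 3139 CPM in AT38 1 and AT38 2, with 5 of 6 detected and Ly6g at 0. Without vehicle 2, the library with no such cell, none of the 3 passed, although the log2 fold changes of 3.80 for Il1a (edgeR, adjusted p = 0.267), 3.42 for Il1r2 (adjusted p = 0.241) and 3.01 for Slc7a11 (adjusted p = 0.241) remained high.

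**Figure D5:**
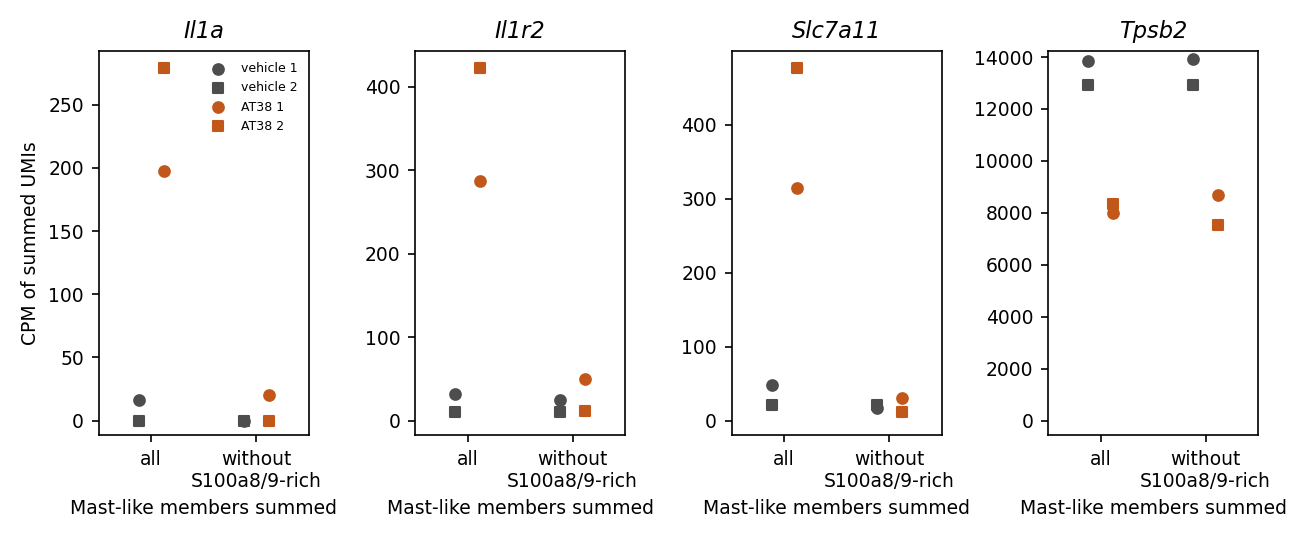
CPM of summed UMIs (y, linear axis from 0) for Il1a, Il1r2, Slc7a11 and Tpsb2 in mast-like members without Mcpt8, 1 point per library, with all 67 cells (left in each panel) and without those with 20 or more S100a8 and S100a9 UMIs (right). Without those cells the 3 genes higher with AT38 are at most 50.3 CPM in every library, whereas Tpsb2 stays at 12912 and 13922 CPM with vehicle and 7529 and 8668 with AT38.

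Genes that missed the threshold but were next in line are given by value. H19, a non-coding RNA of fetal growth, had 3, 3, 22 and 52 UMIs (log2 fold change 3.55 ± 0.61, edgeR adjusted p = 0.0633). It passed in 6 of 17 alternatives, among them DESeq2 (3.59, adjusted p = 0.0220) and removal of high doublet scores (3.73, edgeR adjusted p = 0.0449). Without cells rich in S100a8 and S100a9 it stood at 3.86 (edgeR, adjusted p = 0.116), and with up to 20% mitochondrial UMIs allowed at 1.47 (adjusted p = 0.546). Jak2, a kinase of cytokine receptors, had 1, 2, 14 and 15 UMIs (3.15 ± 0.78, edgeR adjusted p = 0.289). Mki67, a proliferation gene, stood at 48.3 and 52.8 CPM with vehicle and 144 and 198 CPM with AT38 (1.75 ± 0.44, edgeR adjusted p = 0.289). G0s2, a lipolysis inhibitor, was at 32.2 and 10.6 CPM with vehicle and 135 and 180 CPM with AT38, and the ferritin gene Fth1 at 2884 and 2325 against 4202 and 4056 CPM. Fth1 turned to a log2 fold change of −0.35 without the cells rich in S100a8 and S100a9 (edgeR, adjusted p = 0.936). On the lower side, Prkar2b, a subunit of protein kinase A, was at 185 and 190 CPM with vehicle and 26.9 and 45.0 CPM with AT38 (−2.34 ± 0.46, edgeR adjusted p = 0.144). Ctsd, a lysosomal protease, was at 1321 and 1469 CPM with vehicle and 727 and 657 CPM with AT38 (edgeR adjusted p = 0.242). With the 25 mast-like cells that have Mcpt8 added, the log2 fold changes shrank to 0.81 for H19, 1.07 for Jak2, 0.26 for Mki67, 1.24 for G0s2 and −1.30 for Prkar2b, and none of the 5 passed (edgeR, adjusted p from 0.779 to 0.999).

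Over all 105 members, 0 of 4255 genes were called in either direction (0.0%; edgeR, 27 at an unadjusted p under 0.05; DESeq2 called 0, with 16 at an unadjusted p under 0.05). The genes nearest to a call there were AA467197 higher (log2 fold change 3.98, edgeR adjusted p = 0.999) and Prkar2b lower (−1.84, edgeR adjusted p = 0.999). Between members and all other kept cells the AT38 effect differed for 0 of 4255 genes (0.0%; edgeR interaction with library terms, 34 at an unadjusted p under 0.05). Without the 2 Krt8/Krt18-rich barcodes, a choice made after seeing the data, it differed for 2 genes. They were Il1a (log2 difference 4.37, edgeR adjusted p = 0.0320) and AA467197 (4.59, edgeR adjusted p = 0.0370). The cells rich in S100a8 and S100a9, which held 93.1% of the Il1a UMIs of all mast-like members, stayed in this sum. Among other kept cells Il1a was at 344, 352, 313 and 312 CPM, lower in both AT38 libraries by a small amount. The basophil-like cells, 2 or 3 per library with the Krt8/Krt18-rich barcodes counted, were too few for a test of genes with AT38.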

How the data were processed

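Single-cell libraries of the 10x Chromium 3′ v3.1 chemistry were made from CD45-enriched tumour cells, per the labels' protocols. The deposited matrices hold raw counts of UMIs per gene and barcode, and the submitters' processing notes name Cell Ranger 3.1.0 and mm10. The annotation release and the handling of reads shared by similar genes are not given in the sources used here. The matrices list 31053 genes, of which 36 repeat a symbol and were kept by gene ID. Samples were grouped by the treatment in the labels. The members, lists and tests were chosen with earlier results of these data known.

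Cells were selected as the report states, with Python 3.11.15, pandas 2.3.3 and scipy 1.17.1. Doublets were scored with scanpy 1.11.5 (scrublet) and removed only in an alternative, at 0.8% per 1000 barcodes. UMIs were summed per library and tested with edgeR 4.0.16 (quasi-likelihood, robust, TMM, filterByExpr, two-sided; R 4.3.3) after Benjamini-Hochberg adjustment over all genes tested, at a threshold of 0.05. Cell numbers were tested in edgeR with the log of kept cells as offset, adjusted over the disjoint classes of the kept cells. DESeq2 1.42.0 was an alternative. Neutrophil-like cells had at least 20 UMIs of S100a8 and S100a9 and at least 1 of Csf3r, with 0 of Cd3e, Cd79a and C1qa. Printed errors of log2 fold changes are standard errors of the model. The spread behind each p-value is that of libraries made from pools, not of mice.

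Named genes were the members of the fixed lists described by role, and in each test the called genes with a mean of at least 10 CPM whose groups do not overlap, or the 5 of smallest p in a direction where fewer than 5 passed. Genes of level contrasts were taken from the 15 with the largest ratio at 50 CPM or more (1 CPM added), and the same direction in all 4 libraries was required. Further genes named for their role (Pim1, Fcer1g, Il1rl1, Tph1 and the like) belong to these lists. Scripts were tested on simulated counts with an assumed spread between libraries. For mast-like cells without Mcpt8, 3.3% of genes with a true log2 fold change of 1 in size were called. Of genes with a size of 2, 53.7% were called. A gene not called may therefore still have changed. Gene positions are from GENCODE M21, which matched 30934 gene IDs, and promoters from RefSeq (GRCm38.p6), with 27025 genes. The promoters of Tpsb2, Mcpt2 and Tpsab1 were not used here.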

Additional observations from a re-analysis of the deposited data

How the results depend on the processing

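All values here are log2 fold changes with AT38 or numbers of genes called by edgeR unless named otherwise. The share of members kept its direction in 13 of 15 alternatives and passed in none of them; leaving out a library in turn gave −0.41 to 0.27. For mast-like cells without Mcpt8 the library left out gave −0.35 to 0.81, and with Cd3e, Cd79a and C1qa allowed the value was −0.0074. For basophil-like cells it was −0.67 with high doublet scores removed, which left 1, 1, 0 and 1 cells by library, 2 of these 3 the Krt8/Krt18-rich barcodes, and −3.60 with members thinned to 1000 UMIs, and for cells with none of the 3 subtype genes 2.41 and 0.78. The lower share of mast-like cells with Mcpt8 kept its direction in 16 of 16 alternatives, with adjusted p from 0.222 to 0.655.

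Over all members the number of genes called was 7 with no filter, 1 without members above the 95th percentile of UMIs, 1 (Il1a) without Krt8/Krt18-rich barcodes, and 0 to 44 with a library left out. In mast-like cells without Mcpt8 it was 30 with no filter, 8 at up to 20% mitochondrial UMIs, 0 without cells rich in S100a8 and S100a9, 1 with cells that have Mcpt8 added, and 1 to 28 with a library left out. The lowest of these, 1, came without vehicle 2, and the others were 9, 28 and 25 without vehicle 1, AT38 1 and AT38 2. For the difference between members and other cells it was 2 without the Krt8/Krt18-rich barcodes, 2 for mast-like members with or without Mcpt8, and 0 to 16 with a library left out. With a library left out, the lone library of an arm is assumed to vary like the other group. The cause of these shifts was not tested.

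With the replicate number as a block, 18 genes were called in mast-like cells without Mcpt8 and 0 in all members. The labels do not say that the number marks a shared batch, and the deviations of same-numbered libraries correlated at −0.196 and 0.63 in these sums (across 1588 and 4255 genes). The second of these sums holds the Krt8/Krt18-rich barcodes of vehicle 2 and AT38 2. In mast-like cells with or without Mcpt8 the correlation was 0 (across 2541 genes). With the numbers crossed, chosen after seeing the data, 0 genes were called in mast-like cells. Tpsb2 stayed lower in 17 of 17 alternatives, at −0.76 to −0.59, with adjusted p from 0.00148 to 0.648, and passed in 9. Without the cells rich in S100a8 and S100a9, Fth1 was at −0.35 and, with cells that have Mcpt8 added, at −0.27, Cxcl2 at −0.63 and Il1b at −0.91; Mcpt2 was at 0.019 in the first of these. The test of genes in basophil-like cells was not run. The depth of 67 mast-like and 7 basophil-like cells limits all gene results.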
